A study of Mus musculus with 4 samples.

Results

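The genes described here copy DNA and guard it during S phase, and they were measured in infarcted mouse hearts with and without the histone demethylase KDM5B. They are 52 genes, grouped into 9 roles from origin licensing to the E2F factors. Of these, 51 are among the 15053 genes whose brightest probe could be tested on these arrays. The members were chosen by earlier results of the same arrays, so the KO minus WT values of these 52 genes are given as a description and no test of them is drawn on. Each gene is represented by its brightest probe, out of 73 probes that carry the members' names, and 33 of the genes had a single probe.

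Left ventricles were taken at 7 days after infarction, caused by closing off the left anterior descending artery with a suture in C57BL/6 mice labelled male, of 8 to 10 weeks. The WT group carried the intact gene. The KO group carried a constitutive deletion made with CRISPR/Cas9 that removes part of the JmjC domain, the catalytic part of KDM5B, and shifts the reading frame, so it is not restricted to a cell type. All animals of both groups were infarcted, so no uninjured heart is among the arrays. Each group had 2 arrays, numbered 2 and 3 in the labels and called WT 2, WT 3, KO 2 and KO 3 here.

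Before a cell divides, the origin recognition complex, Cdc6 and Cdt1 load the Mcm2 to Mcm7 ring onto DNA in G1. Cdc45 and the GINS proteins then turn the ring into an active helicase, and polymerases copy the strands behind it while the Pcna clamp holds them in place. Many of these genes are switched on together at the G1/S boundary by E2F factors once the retinoblastoma proteins release them. Adult cardiomyocytes rarely enter S phase, while fibroblasts, endothelial cells and leukocytes of the healing infarct do.

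Levels are log2 processed signals minus the 75th percentile of the same array, so a difference of 1 is a 2-fold difference. Levels of different probes are not comparable with each other. The smallest two-sided p that an exact permutation test of 2 arrays against 2 allows is 0.333, and the labels do not say whether arrays came from pooled animals. The tissue is a mixture, so fewer cells of a type and less RNA per cell cannot be told apart.

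The arrays did not all bear out their labels. Before scaling, Xist, a marker RNA of the inactive X, gave log2 signals of 14.1 (WT 2) and 13.2 (KO 2) at number 2 but of 1.92 (WT 3) and 2.01 (KO 3) at number 3, and the 4 Y-linked genes measured showed the opposite split, against the label of male on every sample. Each genotype has an array on either side of the split. Counts and medians over all members are also given within a number, where each genotype has a single array. KO 2 stood apart in its cell markers. All 14 cardiomyocyte markers, which define the labelled tissue, were tested and were highest on KO 2. The mean level of 3 atrial genes (Sln, Myl7 and Myl4) was 5.93 on KO 2 and between -2.85 and -0.96 on the other arrays, and KO 2 was the lowest array for 12 of 13 macrophage and monocyte markers. Kdm5b itself was lower on both KO arrays, at -2.40 (KO 2) and -2.26 (KO 3), than on the WT arrays at -0.87 (WT 2) and -1.81 (WT 3), and whether its probes lie in the deleted part was not determined.

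Stretches of member promoters are shown first because several hold the element that E2F factors are known to bind. RefSeq promoters (assembly GRCm38.p6, from 250 bases before to 50 bases after the annotated start) were at hand for 42 of the 52 members. They were searched on both strands for E2F type elements (TTTCCCGC, TTTGGCGC, TTTCGCGC or TTTGCCGC), for the CCAAT box and for the CHR element TTTGAA. An E2F type element was found in 15 of the 42 members, or 35.7%, against 2.60% of the 27025 genes in the table. Counted by promoter, 15 of 51 member promoters held such an element, against 2.26% of 32851.

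The following stretches run 5′ to 3′ on the strand of the gene and end before the annotated start. Capitals mark the E2F type element, and where 2 overlapping matches lie on opposite strands the capitals cover both.
Cdc6, chr11:98907987-98908046, plus strand, element starting 138 bases before the start: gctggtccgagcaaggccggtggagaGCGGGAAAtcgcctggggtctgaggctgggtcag
Mcm5, chr8:75109330-75109393, plus strand, element starting 153 bases before the start: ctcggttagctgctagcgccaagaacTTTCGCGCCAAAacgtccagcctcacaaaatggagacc
Mcm6, chr1:128359778-128359841, minus strand, element starting 110 bases before the start: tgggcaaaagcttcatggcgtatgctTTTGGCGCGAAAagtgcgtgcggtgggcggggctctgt
Mcm7, chr5:138172015-138172074, minus strand, element starting 165 bases before the start: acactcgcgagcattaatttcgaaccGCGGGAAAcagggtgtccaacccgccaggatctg
Uhrf1, chr17:56304102-56304161, plus strand, element starting 185 bases before the start: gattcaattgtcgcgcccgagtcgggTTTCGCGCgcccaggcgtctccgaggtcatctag
Brca2, chr5:150522427-150522486, plus strand, element starting 168 bases before the start: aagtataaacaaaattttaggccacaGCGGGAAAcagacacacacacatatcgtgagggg
Orc1, chr4:108579401-108579453, plus strand, element starting 27 bases before the start: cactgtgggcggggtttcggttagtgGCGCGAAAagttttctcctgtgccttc

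Mcm5 and Mcm6 each held 2 such matches that overlap on opposite strands, and Mcm6 held a further match 47 bases before its start. The element lay only after the start in Cdt1, E2f2, Lig1, Mcm3, Pold1 and Pole2. Dnmt1 and Rfc3 completed the 15. The CCAAT box was found in 26 of the 42 members, or 61.9%, against 41.1% of all genes in the table. Among these members were Mcm10 and the ring subunits Mcm2, Mcm3, Mcm5, Mcm6 and Mcm7. The CHR element, known from genes of G2 and mitosis, was found in 7 members, or 16.7%, against 20.2% of all genes. A match is a stretch of letters and not a measured binding site. The 14 tested members with an E2F type element had a median KO minus WT difference of 0.45, and the 27 tested members whose promoter held none had a median of 0.54.

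**Figure D1:**
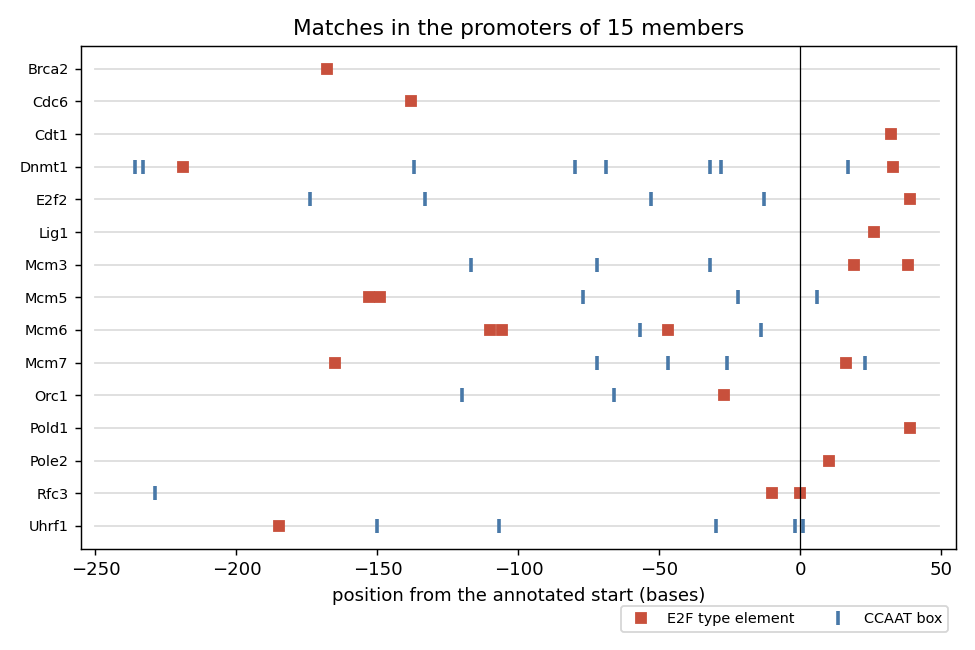
Positions of E2F type elements (red squares) and CCAAT boxes (blue ticks) in the promoters of the 15 members with an E2F type element. Positions are in bases from the annotated start of each promoter, from 250 bases before to 50 bases after it. Each line is a gene, and matches in different promoters of a gene share its line. For Dnmt1, E2f2, Mcm7 and Uhrf1, marks on a line therefore need not lie in the same promoter. Of these 15 genes, Cdt1, E2f2, Lig1, Mcm3, Pold1 and Pole2 have the element only after the start.

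Across the arrays the members stood in a common order. KO 3 gave the highest of the 4 levels for 43 of 51 tested members and WT 3 the lowest for 41. Of the 52 genes, 51 were tested, and each of these was well above background on all 4 arrays. Orc1, the subunit of the origin recognition complex named above, was well above background on KO 3 alone and has no fold change. The mean level over the 51 members was -0.29 (WT 2) and -0.57 (WT 3) against -0.089 (KO 2) and 0.25 (KO 3).

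All 51 tested members had a higher mean in KO, where 55.1% of all tested genes did, and the median difference was 0.48 against 0.036 over all genes. The KO arrays both exceeded the WT arrays for 33 members, where 13.3% of all genes did so, and both lay below for 0 members against 8.88% of all genes. A mean difference over 2-fold was found for 3 members, Tk1, Brca1 and Rrm2, and for 1.12% of all genes. Since these values chose the members, nothing is read from the counts. The standard error of a member's difference ran from 0.21 to 0.68 with a median of 0.31. It is the moderated value of limma, which draws each probe's variance toward that of all tested probes.

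By limma with Benjamini-Hochberg adjustment, 0 of the 28305 tested probes (0%) passed an adjusted p under 0.05 with a fold change over 2, with 0.9999 as the lowest adjusted p. Unadjusted, 410 probes (1.45%) had a p under 0.05, among them 5 of the 51 members. The t-test that the methods name put 1 member under that threshold and 3.11% of all probes. These values chose the members, so nothing is read from either member count. By a test that corrects for the number of probes, no member was shown to differ between the genotypes.

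**Figure D2:**
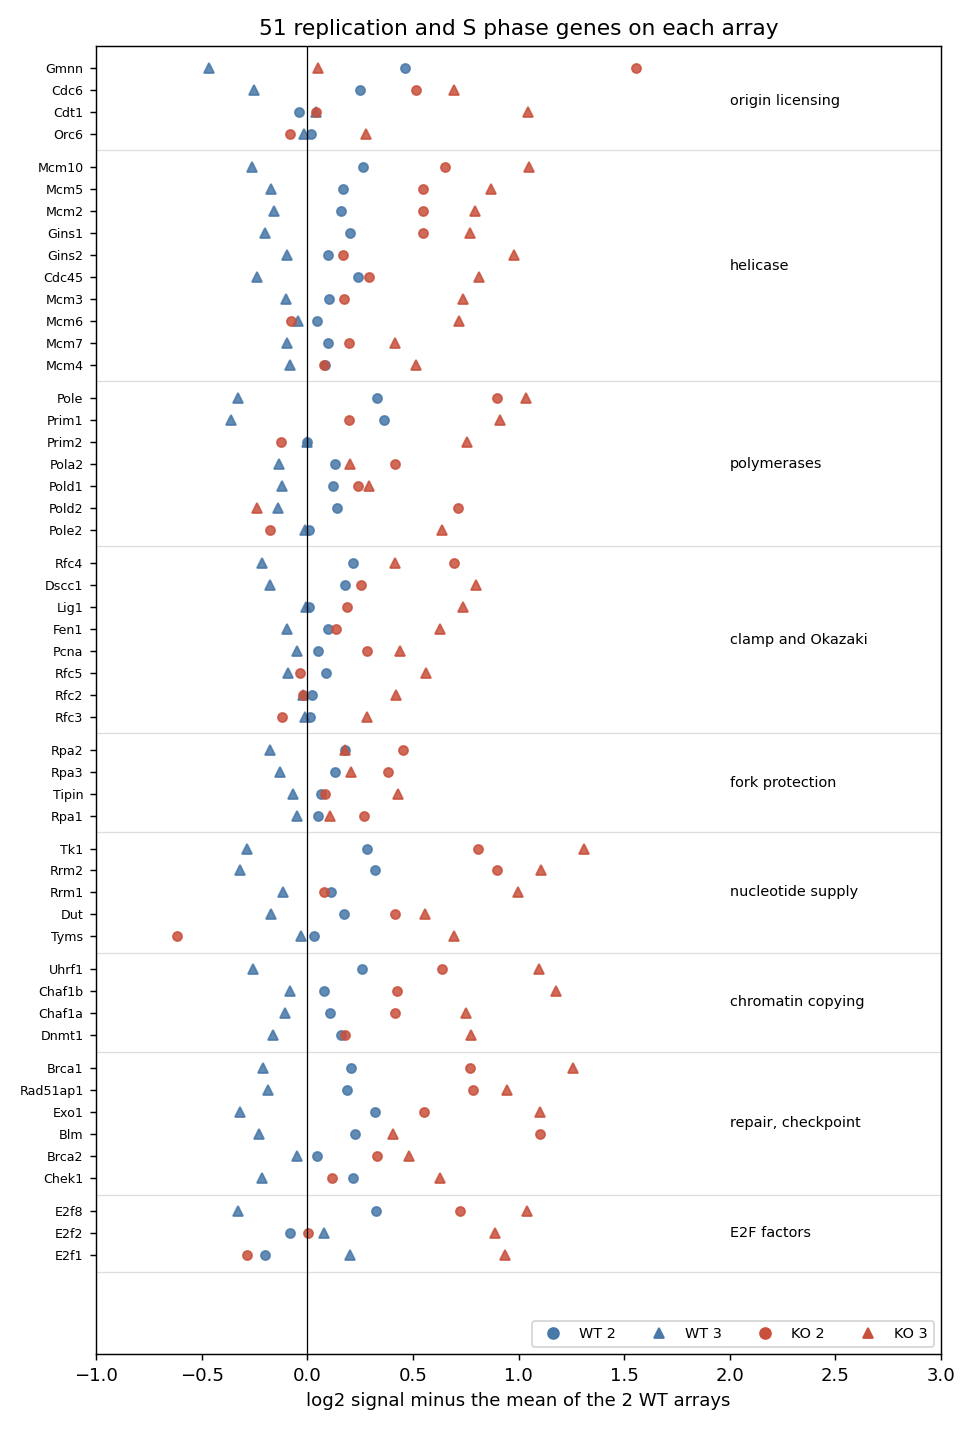
Log2 signal of each of the 51 tested members on WT 2 and WT 3 (blue) and KO 2 and KO 3 (red), relative to the mean of both WT arrays; circles are arrays numbered 2, triangles are arrays numbered 3, and genes are ordered within their roles. KO 3 is the rightmost point for 43 members, and Tyms has KO 2 below and KO 3 above both WT arrays.

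The genes of origin licensing spread widely. Cdc6, the ATPase that loads the helicase, read -3.04 and -3.54 on arrays WT 2 and WT 3, and -2.78 and -2.59 on arrays KO 2 and KO 3. Both KO arrays were above both WT arrays, with a difference of 0.60. Gmnn encodes geminin, the inhibitor of Cdt1 that blocks licensing a further time in the same cycle. It had the largest difference of this role, 0.80, from 2.91 (WT 2) and 1.99 (WT 3) against 4.01 (KO 2) and 2.50 (KO 3). The high KO 2 value stood alone, and KO 3 lay between the WT arrays. Orc6, a small subunit of the origin recognition complex, differed least at 0.099, from 1.50 and 1.46 in WT to 1.40 on KO 2 and 1.76 on KO 3. Cdt1, the loading partner of Cdc6, differed by 0.54, nearly all of it on KO 3.

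All 10 genes of the replicative helicase had a higher KO mean, between 0.30 and 0.85, and KO 3 was the highest array for each of them. Mcm2, a subunit of the ring, read -0.64 and -0.95 on arrays WT 2 and WT 3, and -0.25 and -0.0019 on arrays KO 2 and KO 3. Mcm5 read 0.26 (WT 2) and -0.079 (WT 3) against 0.64 (KO 2) and 0.96 (KO 3). Both subunits therefore had KO arrays clear of the WT arrays, with differences of 0.67 and 0.71. Mcm3 read 1.32 and 1.12 on arrays WT 2 and WT 3, and 1.39 and 1.96 on arrays KO 2 and KO 3. Mcm7 read 1.68 (WT 2) and 1.49 (WT 3) against 1.78 (KO 2) and 2.00 (KO 3). These subunits also did not overlap between the groups, but their KO 2 values lay within 0.10 of WT 2.

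Mcm4 and Mcm6 were the subunits whose groups overlapped. Mcm4 read 1.86 and 1.69 on arrays WT 2 and WT 3, and 1.85 and 2.29 on arrays KO 2 and KO 3. Mcm6 read 3.30 (WT 2) and 3.21 (WT 3) against 3.17 (KO 2) and 3.97 (KO 3). In both genes KO 2 lay at or below WT 2, so the differences of 0.30 and 0.32 rest on KO 3. Mcm10, which helps to activate the helicase, had the largest difference of this role, 0.85, from -0.87 and -1.40 on arrays WT 2 and WT 3, and -0.48 and -0.085 on arrays KO 2 and KO 3. Cdc45, Gins1 and Gins2, the partners that complete the active helicase, differed by 0.55, 0.66 and 0.57, with both KO arrays above both WT arrays.

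Among polymerases and primase, Pole stood out. It encodes the catalytic subunit of the leading-strand polymerase and read -0.53 (WT 2) and -1.19 (WT 3) against 0.039 (KO 2) and 0.18 (KO 3). The difference was 0.97 and the groups did not overlap. Its partner subunit Pole2 had the smallest difference of the role, 0.23, from -1.88 and -1.90 on arrays WT 2 and WT 3, and -2.07 and -1.26 on arrays KO 2 and KO 3, so KO 2 was the lowest array. Pola2, Prim1 and Prim2, which belong to the complex that starts new strands, differed by 0.31, 0.56 and 0.31. Pold1 and Pold2, subunits of the lagging-strand polymerase, differed by 0.27 and 0.24. Pold2 was the only tested member lower in KO 3 than in WT 3, by 0.10, and was higher in KO 2 than in WT 2 by 0.58.

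Pcna, the sliding clamp, read 2.72 (WT 2) and 2.62 (WT 3) against 2.95 (KO 2) and 3.11 (KO 3). Its groups did not overlap, and its difference of 0.36 had a moderated standard error of 0.21. The clamp loader subunits Rfc2 to Rfc5 ranged from 0.081 to 0.56. Rfc4 had the largest difference of this role, from 0.37 and -0.066 on arrays WT 2 and WT 3, and 0.85 and 0.57 on arrays KO 2 and KO 3, and here KO 2 was the higher KO array. Rfc3 had the smallest, from -2.63 (WT 2) and -2.66 (WT 3) against -2.77 (KO 2) and -2.36 (KO 3). Dscc1, part of an alternative clamp loader, and Fen1 and Lig1, the nuclease and ligase that finish Okazaki fragments, differed by 0.52, 0.38 and 0.46 without overlap of the groups.

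Fork protection had the smallest median of the 9 roles, 0.27, and the smallest span. Rpa1, the large subunit of the protein that coats single-stranded DNA, read 1.76 and 1.67 on arrays WT 2 and WT 3, and 1.98 and 1.82 on arrays KO 2 and KO 3, a difference of 0.19. Rpa2 read -0.88 (WT 2) and -1.24 (WT 3) against -0.60 (KO 2) and -0.88 (KO 3), a difference of 0.32. In both genes KO 2 was the highest array, as in Rpa3. Rpa3 and Tipin, a component of the fork protection complex, differed by 0.29 and 0.26.

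The nucleotide supply genes held both ends of the members' range. Tk1, the cytosolic thymidine kinase that salvages thymidine, had the largest difference of all, 1.06, a 2.08-fold ratio. Its probe lies on chromosome 11 at 117677105 to 117677164 (mm9), and it read 0.53 and -0.035 on arrays WT 2 and WT 3, and 1.06 and 1.56 on arrays KO 2 and KO 3. Rrm2, the S phase subunit of ribonucleotide reductase, read -1.64 (WT 2) and -2.28 (WT 3) against -1.07 (KO 2) and -0.86 (KO 3), a difference just over 2-fold. Both genes had KO arrays clear of the WT arrays. Rrm1, the large partner subunit of Rrm2, differed by 0.54 and overlapped, while Dut, which destroys dUTP, differed by 0.49 and did not.

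Tyms, the thymidylate synthase that makes dTMP, had the smallest difference of all tested members, 0.037. It read 2.04 and 1.99 on arrays WT 2 and WT 3, and 1.40 and 2.71 on arrays KO 2 and KO 3. The WT arrays were close together and the KO arrays lay on opposite sides of them, at -0.65 within number 2 and 0.72 within number 3. Its other probes showed the same split, at -0.55 and -0.69 within number 2 and 0.46 and 0.90 within number 3.

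All 4 genes that copy chromatin marks and nucleosomes had both KO arrays above both WT arrays, where 13.3% of all genes did so. No other role had this for every member, but these values chose the members and nothing is read from the count. Uhrf1, which recognises newly copied, hemimethylated DNA, read -0.34 (WT 2) and -0.85 (WT 3) against 0.043 (KO 2) and 0.50 (KO 3), a difference of 0.87. Dnmt1, the maintenance methyltransferase that Uhrf1 recruits, differed least in this role, 0.48, from -0.99 and -1.31 on arrays WT 2 and WT 3, and -0.97 and -0.38 on arrays KO 2 and KO 3. Chaf1a and Chaf1b, subunits of the factor that deposits histones behind the fork, differed by 0.58 and 0.80.

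S phase repair and checkpoint genes had the largest median of the 9 roles, 0.79. Brca1, which acts in homologous recombination, has its probe on chromosome 11 at 101350409 to 101350468 (mm9) and read -2.27 (WT 2) and -2.68 (WT 3) against -1.71 (KO 2) and -1.22 (KO 3). The difference was 1.01 and KO lay clear of WT. Chek1, the kinase that answers stalled forks, had the smallest difference of the role, 0.37, from -3.57 (WT 2) and -4.00 (WT 3) against -3.67 (KO 2) and -3.16 (KO 3), and its groups overlapped. Brca2, the helicase Blm and the exonuclease Exo1 differed by 0.41, 0.75 and 0.83 without overlap.

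The 3 E2F factors differed among themselves. E2f1, an activator, read -3.02 and -2.62 on arrays WT 2 and WT 3, and -3.11 and -1.88 on arrays KO 2 and KO 3. KO 2 was the lowest array, and the difference of 0.33 was below its moderated standard error of 0.51. E2f8, a repressor of the family that is itself a target of E2F, read -2.41 (WT 2) and -3.06 (WT 3) against -2.02 (KO 2) and -1.70 (KO 3), a difference of 0.88 without overlap. E2f2, another activator, differed by 0.45 and overlapped.

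Genes with more than 1 probe offer another reading within the same arrays, which share their RNA with the first. Of 21 further member probes, 15 were tested, and 13 of these gave a difference of the same sign as the brightest probe. The exceptions were a Tyms probe at -0.046 and a Brca2 probe at -0.12, against 0.41 for the brighter Brca2 probe. The groups overlapped on the further tested probes of Dscc1, Pola2 and Brca2, though not on their brightest probes. For Rpa2 it was the brightest probe that overlapped and the further probe that did not.

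Within array number 2, 38 of the 51 members were higher in KO 2 than in WT 2, where 53.4% of all genes were, and the median difference was 0.22. Over 2-fold, 1 member (Gmnn, at 1.09) was higher against 6.94% of all genes and 0 members were lower against 9.38%. Within number 3, 50 of 51 were higher in KO 3 than in WT 3, where 54% of all genes were, and the median difference was 0.76. Here 16 members were over 2-fold higher against 2.56% of all genes, and 0 were over 2-fold lower against 1.77%. The difference was larger at number 3 for 47 members and larger at number 2 for Gmnn, Blm, Pold2 and Rpa1. These values also chose the members. With a single array per genotype at each number, whether the numbers differ was not tested.

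The arrays of a genotype also differed among themselves, in opposite directions. WT 2 was above WT 3 for 48 members, and the median of WT 2 minus WT 3 over all 51 was 0.26. KO 3 was above KO 2 for 43 members, and the median of KO 2 minus KO 3 was -0.40. Both held together for 40 of 51 members and for 13.7% of all genes. The wider step at number 3 therefore goes with a lower WT array and a higher KO array alike.

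**Figure D3:**
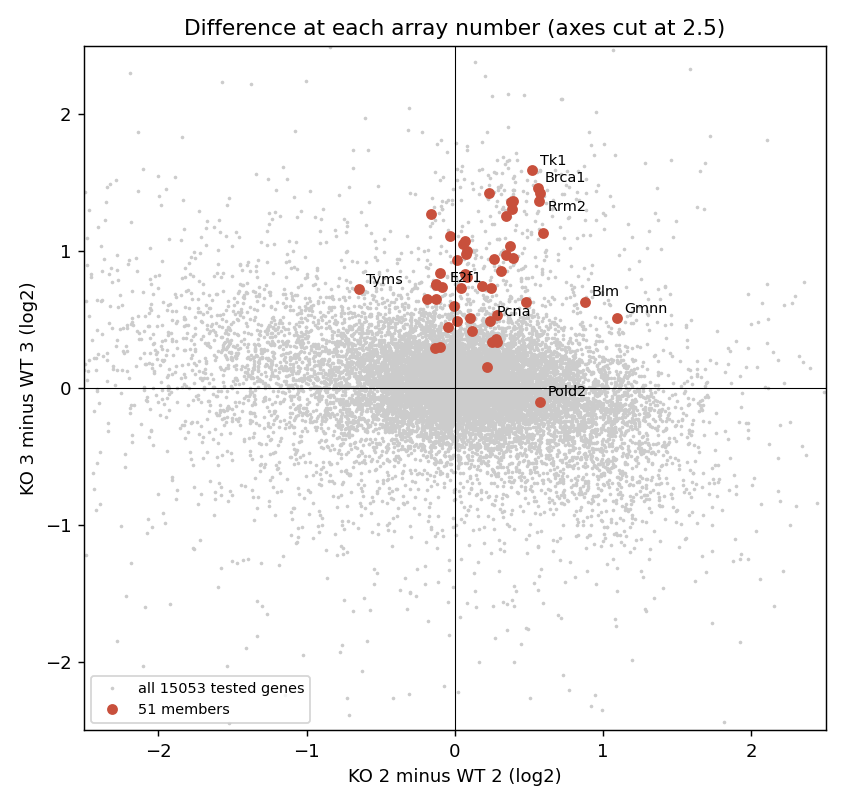
KO minus WT difference in log2 units at array number 2 (horizontal) and number 3 (vertical) for all 15053 tested genes (grey) and the 51 tested members (red); each point rests on 1 array per genotype and number. Of the members, 37 are above 0 at both numbers, 13 are above 0 only at number 3 and Pold2 is above 0 only at number 2.

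Other genes of the same pathways were examined next. They were listed by function, but with earlier results known and after the members had been taken from the same pathways. Their values are not independent of that choice, so nothing is read from their counts. Of 94 such genes on the array 92 were tested. Of these, 79 had a higher mean in KO, where 55.1% of all genes did. Their median difference was 0.21 against 0.036 over all genes. Within number 2, 57 of the 92 were higher in KO, where 53.4% of all genes were, with a median of 0.067. Within number 3, 77 were higher in KO, where 54% of all genes were, with a median of 0.31. Both KO arrays were above both WT arrays for 33 of the 92, or 35.9%, where 13.3% of all genes did so. Both were below for 3, where 8.88% did. By limma none was called, and 6 of the 92 had an unadjusted p under 0.05, against 1.45% of all probes. The spread within each list was wide, and the counts by list that follow read against the same shares of all genes. Of the 15 other origin and initiation genes, 5 had KO clear above WT and 0 below, with Mcm8, a helicase of recombination, highest at 0.66 and the origin subunit Orc5 lowest at -0.20.

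Medians of the lists ran from 0.11 to 0.29. Among 16 other fork and polymerase genes 6 had KO clear above WT and 1 below, from Chtf18, a clamp loader subunit, at 0.86 to Pold4, a small polymerase subunit, at -0.22. Other nucleotide supply genes had the lowest median, 0.11, with 2 of 11 above and 0 below, from Dctpp1, a nucleotide pyrophosphatase, at 0.56 to Samhd1, which degrades dNTPs, at -0.37. Without KO 2 the differences of Pold4, Dctpp1 and Samhd1 were 0.34, 0.13 and 0.078, so these values rest on that array. All 12 other replication chromatin genes had a higher KO mean, where 55.1% of all genes did, and 5 had no overlap. Their differences ran from Dtl, which marks Cdt1 for destruction, at 0.95 to the histone chaperone subunit Ssrp1 at 0.075.

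Of 21 other S phase repair genes 8 had KO clear above WT and 1 below, from Palb2, the link of Brca1 and Brca2, at 1.49 to the checkpoint clamp subunit Rad1 at -0.24. The Palb2 difference rests on KO 2, at -2.59 against -4.43 on KO 3, and was 0.57 without it. Of 17 other G1/S control genes 7 were above and 1 below, from Ccne2, a cyclin of the G1/S step, at 1.20 to Rbl2, a retinoblastoma relative, at -0.17. The 21 tested mitosis genes all had a higher KO mean, where 55.1% of all genes did, with a median difference of 0.92. Of these, 19 had both KO arrays above both WT arrays, against 13.3% of all genes. Anln, a scaffold of the dividing cell's contractile ring, was highest at 1.46 and the spindle checkpoint kinase Bub1 lowest at 0.33. No mitosis gene was called, and 9 had an unadjusted p under 0.05 by limma, against 1.45% of all probes. Within number 2, 20 of the 21 were higher in KO, where 53.4% of all genes were, with a median of 0.485. Within number 3, all 21 were higher in KO, where 54% of all genes were, with a median of 1.45. The mitosis genes were also listed with earlier results of these arrays known, so nothing is read from these counts.

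**Figure D4:**
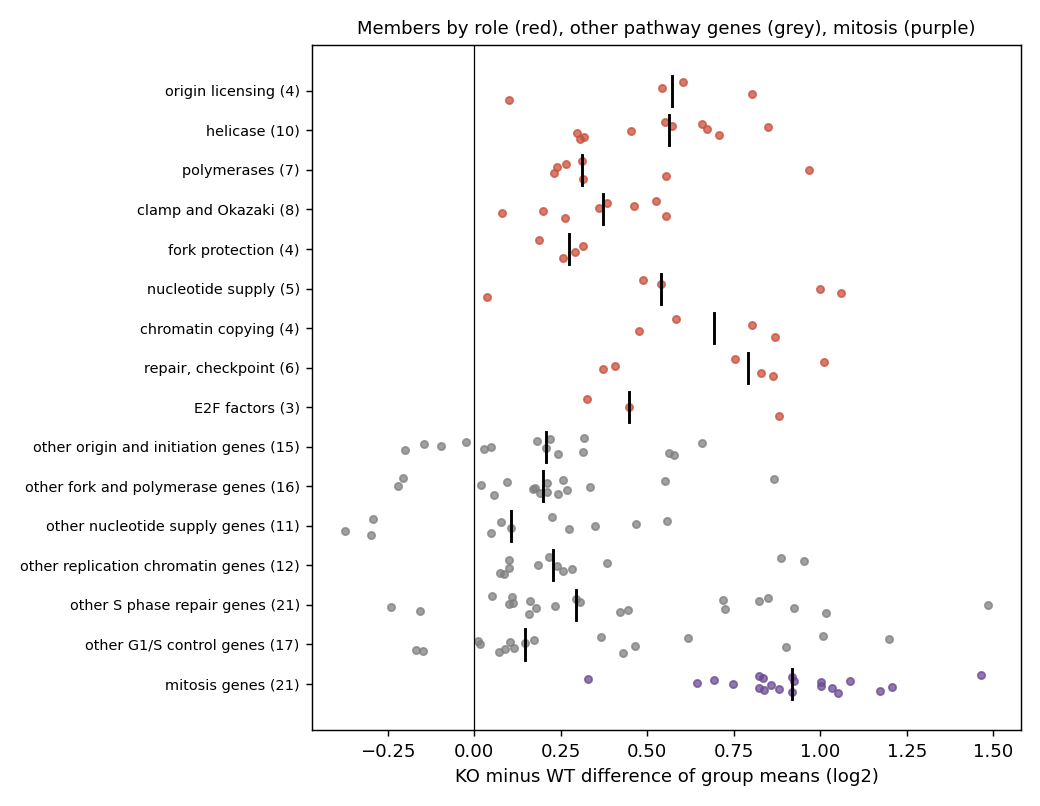
KO minus WT difference of group means in log2 units for each tested gene (points) and the median (black bar) of the 9 roles of members (red), 6 lists of other pathway genes (grey) and the mitosis genes (purple), with the number of genes in brackets. The medians are 0.27 to 0.79 for the roles of members, 0.11 to 0.29 for the other pathway lists and 0.92 for the mitosis genes.

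Cell type marker means spread more widely over the arrays than the member mean did for cardiomyocyte, atrial, fibroblast, leukocyte and erythroid lists. The mean of 14 cardiomyocyte markers was 6.36 and 5.26 on arrays WT 2 and WT 3, and 7.40 and 4.47 on arrays KO 2 and KO 3, the reverse of the members' order within KO. The mean of 13 macrophage and monocyte markers was 3.20 (WT 2) and 3.55 (WT 3) against 2.09 (KO 2) and 3.78 (KO 3). The mean of 12 fibroblast markers was 4.79 and 4.99 on arrays WT 2 and WT 3, and 3.90 and 4.95 on arrays KO 2 and KO 3. Means of the 12 endothelial markers lay between 2.36 and 2.94. KO 3, where members were highest, had the lowest cardiomyocyte mean and the highest macrophage mean. The WT arrays did not share this order. WT 3, where the member mean was lowest, had a lower cardiomyocyte mean and higher macrophage and fibroblast means than WT 2.

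Neutrophil markers averaged -2.70 on KO 2 and between -0.48 and -0.29 on the other arrays, and T and B cell markers averaged -4.07 on KO 2 against -2.59 to -1.92 elsewhere. Erythroid markers averaged 1.04 on WT 2 and 2.18 to 3.08 on the other arrays. KO 2 thus had the lowest leukocyte marker means of the arrays, while its member mean lay above both WT arrays. Without KO 2 the members' median difference was 0.73, and without KO 3 it was 0.28, with 42 of 51 members higher. The part of cell makeup in the members' levels was not tested.

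**Figure D5:**
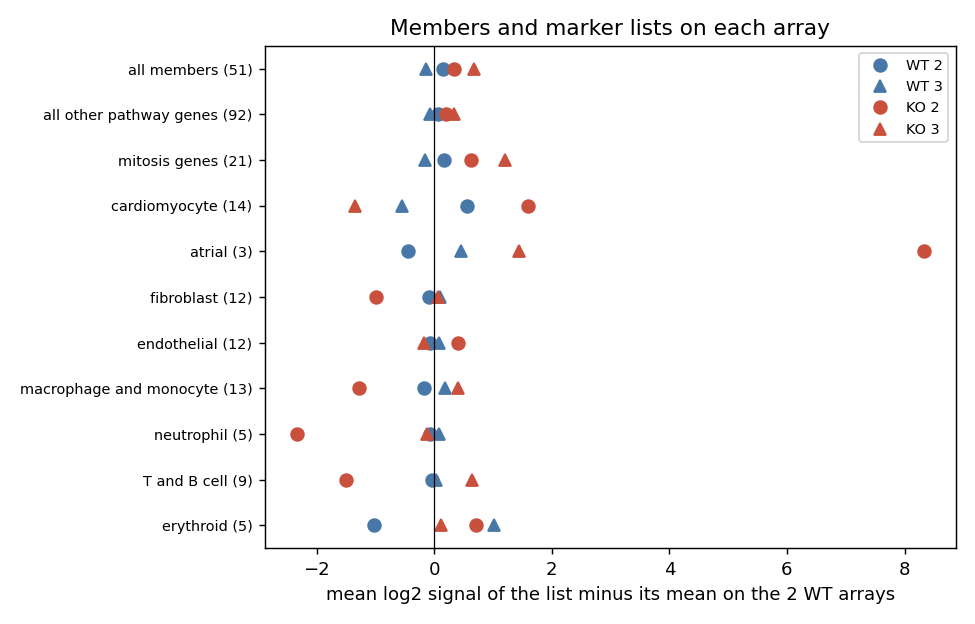
Mean log2 signal of the members, other pathway genes, mitosis genes and 8 marker lists on each array, relative to the mean of both WT arrays (blue, WT; red, KO; circles, number 2; triangles, number 3; number of tested genes in brackets). KO 2 stands far from the other arrays for the atrial list and lowest for the fibroblast, macrophage, neutrophil and T and B cell lists, while the members and mitosis genes are highest on KO 3.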

How the data were processed

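RNA of 4 left ventricle samples was hybridised to Agilent Whole Mouse Genome one-colour arrays. Scanner files with the intensity of every spot were deposited, written by Agilent Feature Extraction 10.7.3.1 per the file headers, on a grid annotated on mm9; spots were background-subtracted and detrended by the software. The authors also deposited a log2 table made with GeneSpring, which lay within 0.05 of quantile-normalized log2 intensity for at least 99.99% of 41168 probes per array; it was used as an alternative. A common slide and scan held the arrays, WT and KO at separate positions, so slide position cannot be told apart from genotype. Precision is limited by the number of arrays.

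Flagged spots were left out, replicate spots averaged and log2 intensity shifted by the array's 75th percentile. A probe was tested if both arrays of WT, of KO or of each found it well above background (28305 probes; 12863 were too dim and 6 lacked a value) with limma 3.58.1 in R 4.3.3 and Benjamini-Hochberg adjustment. Per array, 68.2% to 72.0% of probes were that bright. A gene's value is that of its brightest probe. Named genes are the MCM subunits, Cdc6, Pcna, Rrm2, Tyms, Brca1, Uhrf1 and E2f1, the highest and lowest member of each role, the 6 largest differences without overlap, and the highest and lowest gene of each other list; others are named with their difference only, and 1 member of the repair role is counted but not reported here by name. The members and lists were chosen with earlier results of these data known. The fit was tested on simulated data.

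The settings tried instead were normexp (offset 50), quantile normalization, a median shift, the deposited table, other filters on dim probes, the mean of a gene's probes, eBayes with trend and robust estimation, a block for the array number, omission of each array, the methods' t-test and a shorter promoter window. Promoter sequences are RefSeq's. Promoters of Mcm4, Prim2, Rfc2, Tipin, Gins1, Pole, Gmnn, Gins2, Exo1 and Dscc1 were not used here.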

Additional observations from a re-analysis of the deposited data

Results flagged for a closer look

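Tyms had differences of opposite sign at the array numbers, -0.65 for KO 2 minus WT 2 and 0.72 for KO 3 minus WT 3. In all, 13 tested members were lower in KO at number 2 and higher in KO at number 3, and 1 (Pold2) showed the opposite. The difference between the numbers was not tested, since each holds a single array per genotype. Number 2 is also the number with Xist signal and with the KO array that stands apart in its markers, and the part of either was not tested.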

How the results depend on the processing

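With all 4 arrays, the other scalings, filters and probe summaries left the median KO minus WT difference over members between 0.44 and 0.50. Under them, between 32 and 38 members had KO arrays above WT arrays. The share of all genes that did so was not counted under these settings, so nothing is read from that count. Normexp moved the median of all tested probes from 0.017 to 0.13. With normexp the differences of Tk1, Brca1 and Rrm2 were 0.98, 0.88 and 0.86, each below 2-fold. Members over 2-fold higher in KO 3 than in WT 3 then numbered 11 instead of 16, again without a share of all genes. No setting called a member, and probes were called only by the methods' t-test without adjustment, which called 88. The array number as a replicate block also called 0 probes and 0 members, with 602 probes at an unadjusted p under 0.05; deviations of the same numbers correlated at 0.57 over probes, but 2 numbers do not establish pairing. Leaving out arrays gave a median difference between 0.28 and 0.73, the latter without KO 2, and 35 to 48 members with KO above WT; those with KO below WT numbered 0 to 7, where 1 arose without KO 2 and 7 without KO 3. A lone array separates more easily, and over all genes KO then lay above WT for 20.1% to 47.2% and below for 13.6% to 42.6%. Over all 51 tested members, 42 were higher in KO without KO 3 and 50 without KO 2. Of the 26 members whose level on each array is given, 6 turned negative with an array left out. All 6 did so without KO 3 and were highest without KO 2. Orc6 ran from -0.080 to 0.28, Mcm6 from -0.080 to 0.72, Pole2 from -0.18 to 0.64, Rfc3 from -0.12 to 0.28, Tyms from -0.62 to 0.69 and E2f1 from -0.29 to 0.94. Over the 4 settings that change background correction or scaling, none of the 104 differences of named members changed sign. In the window of 100 bases before the start, 3 members held an E2F type element (7.14%, against 0.98% of genes) instead of 15, fewer bases being searched. A block for slide or scan was not run, since there was 1 of each.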
